A study of Rattus norvegicus with 30 samples.

Results

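The enzymes that write and erase DNA methylation were followed in the rat testis through the first wave of spermatogenesis and in explants kept in organotypic culture. Members were chosen by name: the methyltransferase genes Dnmt1, Dnmt3a, Dnmt3b and Dnmt3l, the Dnmt1 partner Uhrf1, and the dioxygenase genes Tet1, Tet2 and Tet3. Of these 8 genes, 5 were matched by Entrez Gene identifier to one of the 17322 genes with values. Tet1, Tet2 and Tet3 were not analysed here, so the erasing side of the pathway is covered below only through its partner genes.

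Testes of Wistar Han rats were collected without culture at the ages of 8.5, 14.5 and 24.5 days postpartum (dpp) and then at 30.5 dpp, 36.5 dpp and 53.5 dpp, each library coming from a different testis. Explants were fragments of Wistar Han testes of 8.5 dpp, laid on agarose at the gas-liquid interphase in αMEM with serum replacement, retinol and vitamin E, and kept there for 6 days (D6), 16 days (D16), 22 days (D22) or 28 days (D28). These explants correspond in age to testes of 14.5 dpp (D6), 24.5 dpp (D16), 30.5 dpp (D22) and 36.5 dpp (D28), and each cultured library pooled several explants. Each group had 3 libraries except 14.5 dpp, which had 2, since the library labelled as an outlier at that age is listed at 0 for every gene. Levels are the deposited fragments per length of transcript and number of mapped reads (FPKM), a scale on which genes can be compared per length. The number of reads behind each value is unknown, and 1 value per gene does not separate alternative transcripts.

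Dnmt1 copies methylation to the daughter strand after replication, and Uhrf1 recognises the half-methylated site and recruits it. Dnmt3a and Dnmt3b set new methylation on unmethylated DNA, and Dnmt3l has no catalytic activity of its own but stimulates them. In the male germ line most of the methylation pattern is set before birth in prospermatogonia, whereas maintenance is needed wherever spermatogonia and somatic cells divide.

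Promoter windows were read from a RefSeq table of build GRCr8, which covers 250 bases before and 50 after a start, in order to show the members that share or lack motifs of cell-cycle promoters. Windows were found for Dnmt1, Dnmt3a, Dnmt3l and Uhrf1, the last with 3 starts, and the start with most CpG is shown. The Dnmt3b entry was not found. The motifs searched on both strands were the CCAAT box (CCAAT) and an E2F-type site (TTTCGCGC or TTTGGCGC), and capitals mark their matches. In the Dnmt1 window the CCAAT box matched on both strands, and these matches overlap.
Dnmt1 (chr8:27762792-27763091, minus strand): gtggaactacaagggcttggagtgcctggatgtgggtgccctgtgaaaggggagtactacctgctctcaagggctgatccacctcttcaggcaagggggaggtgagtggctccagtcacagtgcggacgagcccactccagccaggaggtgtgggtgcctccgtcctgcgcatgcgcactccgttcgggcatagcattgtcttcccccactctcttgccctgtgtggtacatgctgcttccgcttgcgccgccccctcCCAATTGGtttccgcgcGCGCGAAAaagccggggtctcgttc
Uhrf1 (chr9:1222936-1223235, plus strand): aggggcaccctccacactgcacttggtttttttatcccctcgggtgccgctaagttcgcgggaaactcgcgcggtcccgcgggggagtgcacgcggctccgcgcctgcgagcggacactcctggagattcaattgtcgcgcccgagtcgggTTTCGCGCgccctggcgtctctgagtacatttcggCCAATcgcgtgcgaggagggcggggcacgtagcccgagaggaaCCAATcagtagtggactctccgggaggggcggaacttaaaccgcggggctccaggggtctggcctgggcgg
Dnmt3l (chr20:10628940-10629239, minus strand): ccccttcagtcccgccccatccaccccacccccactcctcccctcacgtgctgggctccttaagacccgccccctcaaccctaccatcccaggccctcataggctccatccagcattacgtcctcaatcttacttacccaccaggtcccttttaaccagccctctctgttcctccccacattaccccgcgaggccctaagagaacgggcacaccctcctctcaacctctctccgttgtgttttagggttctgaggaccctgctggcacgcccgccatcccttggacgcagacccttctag
The Dnmt1 and Uhrf1 windows each held 1 E2F-type match and 2 CCAAT matches, whereas the Dnmt3l window held neither. The windows of the other 2 Uhrf1 starts held no E2F-type match, with 1 and 2 CCAAT matches. Among all 33469 promoters of the table, 0.792% held the E2F-type letters and 37.5% held the CCAAT box. The Dnmt3a window held no CCAAT and no E2F-type match, with 21 CpG, against 17 in Dnmt1, 35 in Uhrf1 and 11 in Dnmt3l and a median of 7 over all promoters. This only Dnmt3a window begins at base 32598352 of chromosome 6, inside a gene that spans 32507316 to 32621678 on the plus strand. It thus describes an internal start, and the letters at the beginning of the gene were not read. A match describes the letters in the window and no more.

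Dnmt1, the maintenance enzyme, stood in the 8.5 dpp testes at 25.8, 22.9 and 26.1 FPKM and in the 14.5 dpp testes at 28.2 and 29.2 FPKM. The levels were 13.0, 10.7 and 18.9 FPKM at 24.5 dpp, 4.21, 2.85 and 4.07 FPKM at 30.5 dpp, 2.82, 2.5 and 2.48 FPKM at 36.5 dpp and 1.16, 1.34 and 1.19 FPKM at 53.5 dpp. From 14.5 dpp on, every library of an older age was below every library of the age before it. In explants the levels were 18.9, 19.3 and 16.5 FPKM at D6, 13.9, 16.3 and 12.6 FPKM at D16, 15.4, 11.8 and 14.1 FPKM at D22 and 15.9, 13.3 and 13.9 FPKM at D28. All 12 explant libraries lay below the 8.5 and 14.5 dpp testes and above the testes of 30.5 dpp and older. In the order of group means, D28, D16, 24.5 dpp and D22 were neighbours whose libraries overlapped, and no other neighbours did. The mean ranged from 28.7 ± 0.675 (SD, n = 2) at 14.5 dpp to 1.23 ± 0.0961 (SD, n = 3) at 53.5 dpp, a ratio of 23.3, whereas the means of the 4 culture times differed by a factor of 1.32.

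Uhrf1 had its highest levels at 8.5 dpp, with 26.6, 27.0 and 39.1 FPKM, and stood at 19.2 and 18.0 FPKM at 14.5 dpp. The levels were 11.6, 9.5 and 19.3 FPKM at 24.5 dpp, 11.7, 11.2 and 5.96 FPKM at 30.5 dpp, 8.63, 4.39 and 5.61 FPKM at 36.5 dpp and 6.29, 4.41 and 2.55 FPKM at 53.5 dpp. Its libraries spread more within an age than those of Dnmt1, and from 14.5 dpp on each age overlapped the next. In explants Uhrf1 stood at 6.87, 12.0 and 10.7 FPKM at D6, 10.8, 6.68 and 4.92 FPKM at D16, 9.69, 4.21 and 4.93 FPKM at D22 and 4.29, 3.17 and 5.15 FPKM at D28. All explant libraries lay below those of 8.5 and 14.5 dpp, and D28 had the lowest mean of the 10 groups, 4.20 ± 0.992 (SD, n = 3). In the order of means only 8.5 and 14.5 dpp were neighbours without overlap.

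Dnmt3a, a de novo methyltransferase, stood at 8.24, 8.72 and 8.37 FPKM at 8.5 dpp and at 12.1 and 8.97 FPKM at 14.5 dpp. The older testes held 3.49, 2.81 and 5.07 FPKM at 24.5 dpp, 1.12, 1.15 and 1.27 FPKM at 30.5 dpp, 0.780, 0.716 and 0.956 FPKM at 36.5 dpp and 0.328, 0.523 and 0.551 FPKM at 53.5 dpp. No library of an age from 24.5 dpp on overlapped the age before it. Explants held 6.66, 7.88 and 6.51 FPKM at D6, 6.6, 6.81 and 6.5 FPKM at D16, 5.28, 5.29 and 5.54 FPKM at D22 and 5.78, 6.11 and 5.36 FPKM at D28. All 12 were below the testes of 8.5 and 14.5 dpp and above those of 24.5 dpp and older. Neighbours in the order of means overlapped only for D6 with D16 and for D28 with D22.

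Dnmt3b, the other de novo enzyme, stood at 4.29, 3.96 and 3.84 FPKM at 8.5 dpp and at 15 and 17.3 FPKM at 14.5 dpp. The levels were 6.79, 5.19 and 8.85 FPKM at 24.5 dpp, 2.65, 1.92 and 1.94 FPKM at 30.5 dpp, 1.49, 1.40 and 1.39 FPKM at 36.5 dpp and 0.523, 0.719 and 1.03 FPKM at 53.5 dpp. The peak at 14.5 dpp was thus flanked by lower levels on both sides, with no overlap. Explants held 11.8, 10.5 and 9.38 FPKM at D6, 8.33, 7.87 and 8.20 FPKM at D16, 7.04, 5.31 and 6.01 FPKM at D22 and 6.44, 8.05 and 7.85 FPKM at D28. Every explant library was above the 8.5 dpp testes from which the culture starts and below the 14.5 dpp testes. D16, D28, 24.5 dpp and D22 overlapped as neighbours in the order of means.

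Dnmt3l, the catalytically inactive cofactor, is listed at 0 in every library of 8.5, 24.5 and 30.5 dpp, D6 and D16. It stood at 0.249 and 0.130 FPKM at 14.5 dpp, at 0.269, 0.196 and 0.209 FPKM at 36.5 dpp and at 1.62, 1.74 and 1.14 FPKM at 53.5 dpp. In explants the values above 0 were 0.0535 FPKM in D22 replicate 1 and 0.0735 FPKM in D28 replicate 1. The testes of 53.5 dpp were above all other libraries, with no overlap. A value of 0 can be a failed estimate, since Hells and Lig1, which dividing cells use, are also listed at 0 in every library. Dnmt3l reached the filter of a median of 0.5 FPKM only through 53.5 dpp, so it had to differ there, and it is left out of the counts below.

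**Figure D1:**
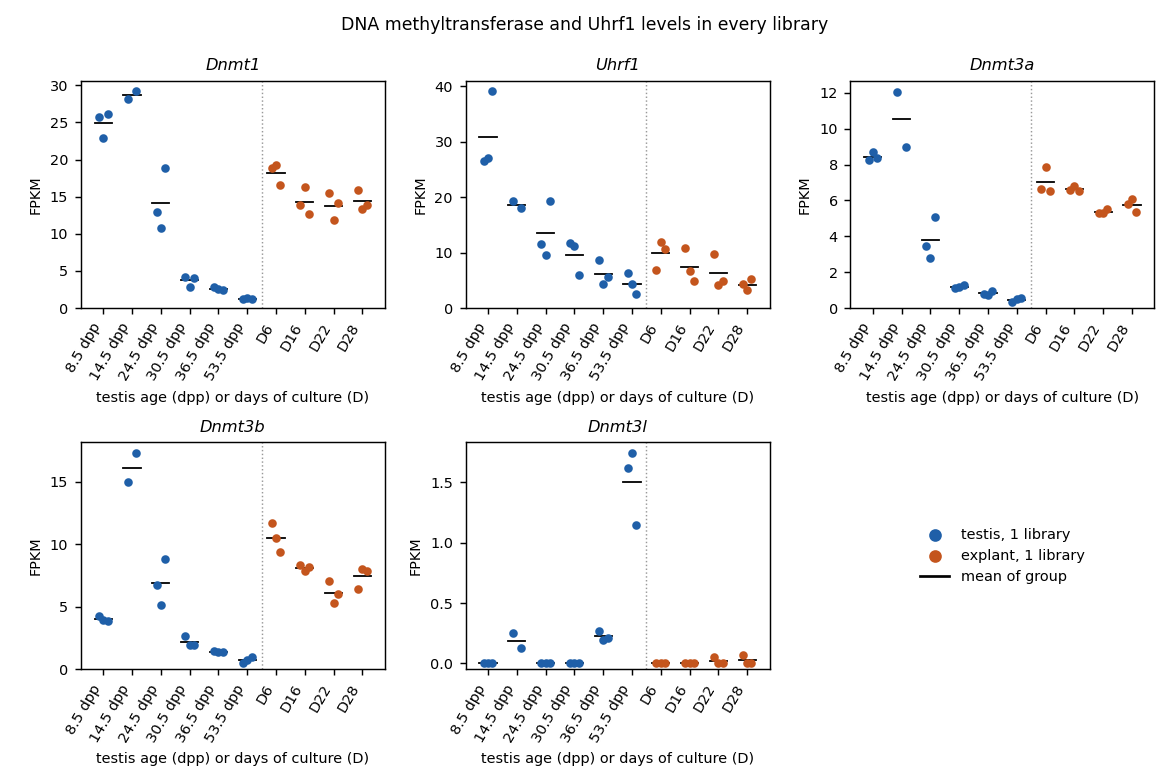
Level of each gene in FPKM (vertical axes, starting at 0 or just below it) for the 6 in vivo ages in dpp and the 4 culture times in days. Points are libraries and lines are group means; Dnmt1, Dnmt3a and Dnmt3b lie in explants below their levels at 14.5 dpp and above those of testes from 30.5 dpp on, whereas Uhrf1 is low in both at the end.

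Comparisons were made with limma on log2(FPKM + 1), a scale that understates changes of low genes. Log2 fold changes below are on that scale, p-values were adjusted over all genes tested, and a gene rose or fell where the adjusted p was at most 0.05. All comparisons with 14.5 dpp share its 2 libraries, and those with 8.5 dpp share its 3 libraries. In bulk tissue, fewer cells of a type and less RNA per cell cannot be told apart.

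In vivo, Dnmt3b alone of the 4 genes Dnmt1, Uhrf1, Dnmt3a and Dnmt3b rose from 8.5 to 14.5 dpp, where 22.7% of the 12531 genes tested rose. Its log2 fold change was 1.77 (SE 0.17, limma adjusted p = 5.29e-06), a ratio of group medians of 4.08, and both older testes were above all 3 younger ones. Uhrf1 had a log2 fold change of -0.68 (SE 0.36, limma adjusted p = 0.152) over the same step, and its difference from Dnmt3b was not tested. Between 14.5 and 24.5 dpp 3 of the 4 genes fell, against 36.2% of all genes. Dnmt3a fell by 1.28, Dnmt3b by 1.13 and Dnmt1 by 1.0 on the log2 scale. Uhrf1 stood at -0.50 (SE 0.36, limma adjusted p = 0.248). Between 24.5 and 30.5 dpp the same 3 genes fell again, against 47.7% of all genes. Here Dnmt1 fell by 1.67 (SE 0.16), Dnmt3b by 1.31 (SE 0.15) and Dnmt3a by 1.11 (SE 0.15), and Uhrf1 had -0.44 (limma adjusted p = 0.236).

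From 30.5 to 36.5 dpp 0 of the 4 genes fell in limma, against 23.1% of all genes, although the unadjusted 95% intervals of Dnmt1 (-0.72 to -0.03) and Dnmt3b (-0.71 to -0.05) lay below 0. In 1 fit of all 10 groups both passed (limma adjusted p = 0.0476 and 0.0351), as they did without 24.5 dpp replicate 2 or 3, and Dnmt1 also without 30.5 dpp replicate 2 (adjusted p from 0.0215 to 0.0481 over these libraries). From 36.5 to 53.5 dpp 2 of the 4 fell, against 32.7% of all genes, Dnmt1 by 0.69 (SE 0.16) and Dnmt3b by 0.47 (SE 0.15). The Dnmt3b change missed the p threshold without any 1 library of 36.5 dpp or without replicate 1 or 2 of 53.5 dpp, with adjusted p between 0.0513 and 0.102, and also under median-ratio scaling (0.12) and quantile normalization (0.135). With quantile normalization Dnmt1 missed it as well (limma adjusted p = 0.0563), whereas Dnmt3a passed with a pseudocount of 0.1 (-0.71, limma adjusted p = 0.0167), in 1 fit of all 10 groups (0.0449) and without 24.5 dpp replicate 3 (0.0359). Over the whole span from 14.5 to 53.5 dpp all 4 genes fell, where 60.6% of all genes did. The log2 fold changes were -3.73 (SE 0.18) for Dnmt1, -3.29 (SE 0.17) for Dnmt3b, -2.96 (SE 0.16) for Dnmt3a and -1.92 (SE 0.36) for Uhrf1. The median gene tested had -0.84 over this span. Relative to it, the changes were -2.89, -2.45, -2.12 and -1.08 in the same order. Median-ratio scaling shifted the median gene by 0.95, and Uhrf1 then stood at -0.70 (limma adjusted p = 0.0956), outside the threshold.

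Against 14.5 dpp, explants at D6 were lower for 3 of the 4 genes, where 6.38% of 11309 genes were. The log2 fold changes were -0.63 for Dnmt1 (SE 0.13, limma adjusted p = 0.0271), -0.57 for Dnmt3b (SE 0.14, adjusted p = 0.0468) and -0.88 for Uhrf1 (SE 0.23, adjusted p = 0.0493). Dnmt3a had -0.51 (SE 0.16, adjusted p = 0.0861). For each of the 3 genes that fell, the p threshold was missed when any 1 of the 5 libraries was left out, with adjusted p from 0.0618 to 0.0918 for Dnmt1, from 0.0705 to 0.157 for Dnmt3b and from 0.0674 to 0.147 for Uhrf1. With the replicate number as a block the 3 genes missed it too (limma adjusted p = 0.113, 0.163 and 0.107). With a pseudocount of 0.1 or no filter Dnmt3b and Uhrf1 missed it, and with median-ratio scaling or 1 fit of all 10 groups Uhrf1 did, while Dnmt3a passed in the fit of all groups (limma adjusted p = 0.0066).

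At D16, D22 and D28 all 4 genes were lower than at 14.5 dpp, against 18.2%, 19.4% and 23.1% of 11517 genes. Uhrf1 had log2 fold changes of -1.27, -1.50 and -1.93 (SE 0.34 each) at these times. Dnmt1 had -0.97, -1.01 and -0.95 (SE 0.14), Dnmt3b had -0.91, -1.27 and -1.02 (SE 0.13) and Dnmt3a had -0.58, -0.84 and -0.76 (SE 0.12). At D28 the limma adjusted p was 0.00181 for Uhrf1, 0.000697 for Dnmt1, 0.000309 for Dnmt3b and 0.000863 for Dnmt3a. Calls used an F test over D16, D22, D28 and 14.5 dpp instead, together with a ratio of medians of at least 2. By this rule, Dnmt1 and Uhrf1 were called lower at D16, against 5.35% of all genes. Dnmt1, Uhrf1 and Dnmt3b were called lower at D22 and at D28, against 5.51% and 6.00%. Dnmt3a was below that fold at each time, with medians lower by factors of 1.59, 1.99 and 1.82. Uhrf1 is on a list that the study drew from these same libraries, so it was in part chosen for being low in culture. At D16 Uhrf1 missed the p threshold without D16 replicate 3 (adjusted p = 0.0552) or without replicate 1 or 2 of 14.5 dpp (0.0761 and 0.0655).

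Explants were also compared with testes of the corresponding age. At D16, 1 of the 4 genes was higher than at 24.5 dpp, against 40.5% of 11658 genes, namely Dnmt3a with a log2 fold change of 0.70 (SE 0.17, limma adjusted p = 0.00865). Dnmt3b, at 0.23 there, passed without 24.5 dpp replicate 3 (limma adjusted p = 0.0241). At D22, Dnmt1, Dnmt3a and Dnmt3b were higher than at 30.5 dpp, where 54.2% of 12118 genes were. Their log2 fold changes were 1.66 (SE 0.16), 1.55 (SE 0.09) and 1.17 (SE 0.14). At D28 the same 3 genes were higher than at 36.5 dpp, against 56.4% of 12210 genes, by 2.09 (SE 0.11), 1.89 (SE 0.10) and 1.80 (SE 0.11) on the log2 scale. All 3 also passed the ratio of medians at D22 and at D28, as 42.1% and 46.7% of all genes did, with ratios at D28 of 5.55, 7.42 and 5.61. A share of 3 in 4 rests on too few genes to be set against these backgrounds, so sizes are given beside the median gene. The number of genes with larger changes was not counted. The median gene stood at 0.51 at D22 and 0.64 at D28, and relative to it the D28 changes were 1.45 for Dnmt1, 1.25 for Dnmt3a and 1.15 for Dnmt3b.

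Uhrf1 was on the other side of 0 in all 3 of these comparisons, with log2 fold changes of -0.77 (SE 0.32), -0.57 (SE 0.33) and -0.45 (SE 0.24) at D16, D22 and D28. None passed in limma (adjusted p = 0.0652, 0.148 and 0.114). Median-ratio scaling shifted the median gene by -0.14, -0.58 and -0.76 in these comparisons. The 3 Uhrf1 values then were -0.90, -1.19 and -1.25, and all passed (limma adjusted p = 0.03, 0.0142 and 0.00159). With quantile normalization Uhrf1 passed at D22 (-0.88, limma adjusted p = 0.0404) and D28 (-0.95, 0.00478). Over all alternatives the adjusted p at D28 ranged from 0.00159 to 0.346, so whether Uhrf1 passes as lower than in testes of the same age depends on the scaling and on single libraries. Without a change of scaling, it passed at D16 in 1 fit of all 10 groups (limma adjusted p = 0.0402) and without D16 replicate 1 (0.0267) or 24.5 dpp replicate 2 (0.0465). It also passed at D22 without D22 replicate 1 (limma adjusted p = 0.0285) or 30.5 dpp replicate 3 (0.0446), and at D28 without 36.5 dpp replicate 2 (0.0448).

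**Figure D2:**
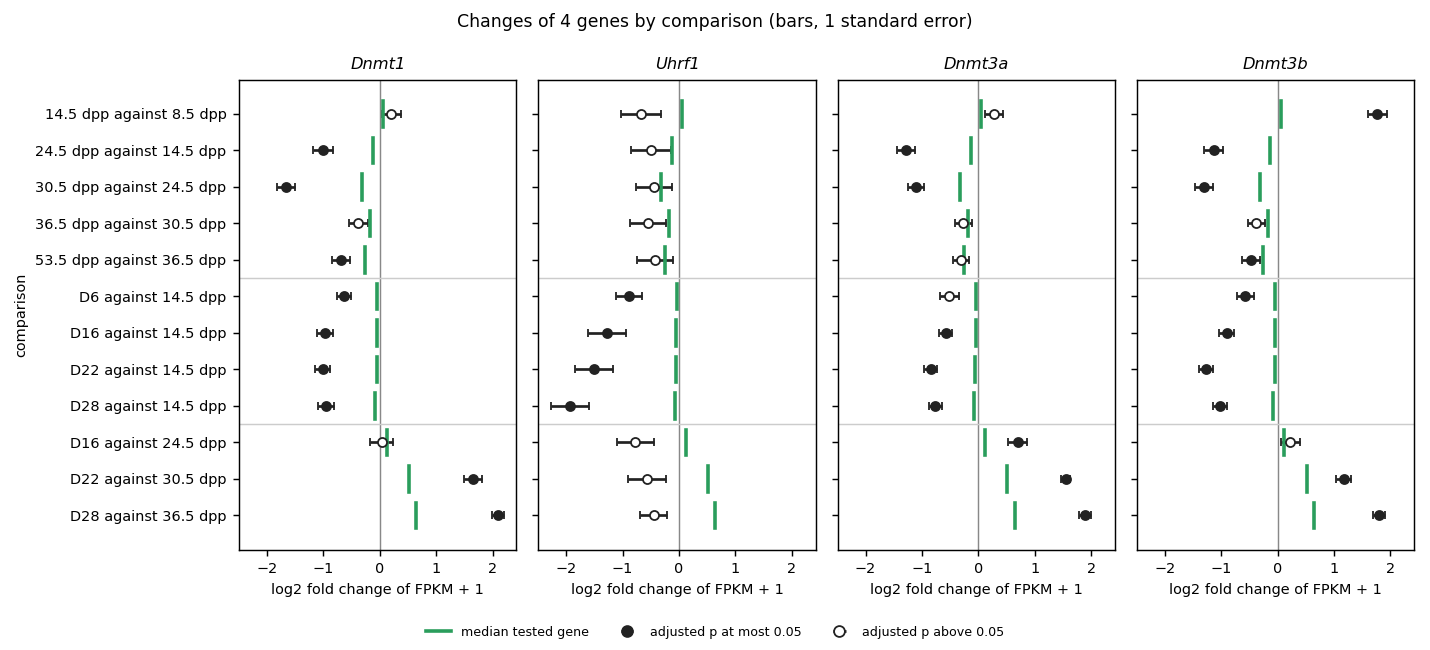
Log2 fold change of FPKM + 1 (horizontal axes) of 4 genes in 12 comparisons, with 1 standard error as bars, filled where the limma adjusted p was at most 0.05. Green marks show the median gene tested; against testes of the same age, Dnmt1, Dnmt3a and Dnmt3b lie to its right at D22 and D28 (for example 2.09 against 0.64 for Dnmt1), and Uhrf1 lies to its left.

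The change over 22 days was set against its in vivo counterpart by an interaction, D6 to D28 minus 14.5 to 36.5 dpp. This difference was above 0 and past the threshold for 3 of the 4 genes, as for 50.9% of 12482 genes. It was 2.72 (SE 0.15) for Dnmt1, 2.41 (SE 0.18) for Dnmt3a and 2.37 (SE 0.17) for Dnmt3b, with a largest limma adjusted p of 9.25e-07, and the median gene stood at 0.63. Uhrf1 had 0.44 (SE 0.37, adjusted p = 0.294), with a sign that turned under median-ratio scaling (-0.40). Within the culture itself, 2 of the 4 genes fell from D6 to D28, against 12.7% of 11358 genes. Uhrf1 fell by 1.05 (SE 0.32, limma adjusted p = 0.0347) and Dnmt3b by 0.45 (SE 0.11, adjusted p = 0.016). Dnmt3a had -0.25 (adjusted p = 0.0517) and Dnmt1 had -0.32 (adjusted p = 0.0802). Uhrf1 missed the p threshold without D6 replicate 2 or 3, D16 replicate 2, or D28 replicate 1 or 2 (adjusted p between 0.0502 and 0.109), or with no filter (0.0526), and Dnmt3b without D6 replicate 1 (0.0642). Dnmt3a passed with a pseudocount of 0.1 (limma adjusted p = 0.0466), with no filter (0.0316) and without D28 replicate 2 (0.0489) or D6 replicate 3 (0.0456).

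Relative to the 8.5 dpp testes from which explants were cut, Dnmt3b was higher and the other 3 genes were lower at D6. Among 11539 genes, 27.7% were higher and 20.5% lower. Dnmt3b had a log2 fold change of 1.20 (SE 0.11, limma adjusted p = 1.61e-06) and Uhrf1 of -1.56 (SE 0.31, adjusted p = 0.001). Dnmt1 had -0.43 (SE 0.12) and Dnmt3a -0.24 (SE 0.07), the latter missing the p threshold without D6 replicate 1 or 3 or 8.5 dpp replicate 2 (adjusted p from 0.0608 to 0.0671) and in 1 fit of all 10 groups (0.117). At D28 the directions were the same for all 4 genes, with 32.1% of all genes higher and 27.6% lower. Dnmt3b stood at 0.74 (SE 0.11), Dnmt3a at -0.49 (SE 0.07), Dnmt1 at -0.76 (SE 0.12) and Uhrf1 at -2.61 (SE 0.31), a ratio of medians lower by a factor of 6.29.

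Ratios within a library do not depend on its scaling. The Uhrf1 to Dnmt1 ratio was 1.24 ± 0.238 (SD, n = 3) at 8.5 dpp, 0.649 ± 0.0464 (SD, n = 2) at 14.5 dpp and 0.932 ± 0.0753 (SD, n = 3) at 24.5 dpp. It was 2.72 ± 1.23 at 30.5 dpp, 2.36 ± 0.657 at 36.5 dpp and 3.61 ± 1.66 at 53.5 dpp (SD, n = 3). D6 explants had a ratio of 0.544 ± 0.156 and D16 explants one of 0.525 ± 0.218, followed by 0.444 ± 0.159 after 22 days and 0.293 ± 0.0693 after 28 days (SD, n = 3). All 9 testes of 30.5 dpp and older thus held more Uhrf1 than Dnmt1 per length, with a lowest ratio of 1.47, and all 12 explants held less, with a highest ratio of 0.777.

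The Dnmt3b to Dnmt3a ratio was 0.477 ± 0.037 (SD, n = 3) at 8.5 dpp and 1.59 ± 0.487 (SD, n = 2) at 14.5 dpp, and it stayed between 1.38 and 2.37 in single testes from 24.5 dpp on. D6 explants had 1.51 ± 0.223 and D16 explants 1.23 ± 0.0609, with 1.14 ± 0.171 after 22 days and 1.3 ± 0.177 after 28 days (SD, n = 3). Every explant library was therefore above the 8.5 dpp testes, whose highest ratio was 0.520. Two-sided exact permutation tests compared 7 pairs of groups for each ratio, 14 tests in all. Explants against testes of the same age gave an exact permutation p of 0.1, the smallest that 3 against 3 libraries allow, for Uhrf1 to Dnmt1 at D16, D22 and D28 and for Dnmt3b to Dnmt3a at D16 and D22. No pair could pass the threshold, and the smallest p adjusted over the 14 tests was 0.2.

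**Figure D3:**
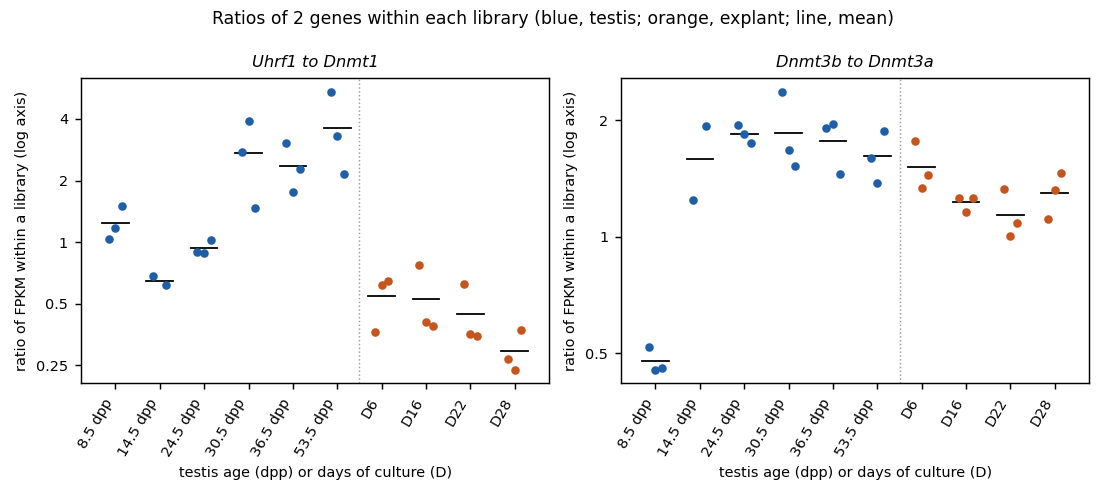
Ratio of FPKM within each library (vertical log axes) of Uhrf1 to Dnmt1 and of Dnmt3b to Dnmt3a, for testes by age in dpp and explants by days of culture. Points are libraries and lines are means; the first ratio is at least 1.47 in testes from 30.5 dpp on and at most 0.777 in explants, and the second is lowest at 8.5 dpp.

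The gene lists below are described by counts, to be read against all genes. Of these, 18.0% rose and 23.1% fell at D28 against 14.5 dpp, and 26.0% rose and 60.6% fell between 14.5 and 53.5 dpp. From D6 to D28 12.7% fell, and 56.4% were higher and 29.8% lower at D28 than at 36.5 dpp. The partners of maintenance methylation were taken as a list of 8 genes, of which 6 passed the filter. At D28 against 14.5 dpp, 4 fell and 0 rose in limma, with a median log2 fold change of -0.57, beside -0.08 over all genes. Cdca7, which targets the remodeller Hells to chromatin, fell by 1.22 (SE 0.11), from 33.2 ± 2.84 (SD, n = 2) to 13.8 ± 1.47 (SD, n = 3) FPKM. Pcna, the replication clamp, fell by 0.81 (SE 0.15), from 121 ± 30.0 to 67.6 ± 5.16 FPKM. Between 14.5 and 53.5 dpp 4 of the 6 fell, a share close to the 60.6% of all genes, with a median of -0.91 beside -0.84. These were led by Cdca7 (-1.61, SE 0.14) and the Uhrf1 relative Uhrf2 (-1.32, SE 0.13). Against testes of the same age 4 of the 6 were lower at D16 and at D22, where 31.9% and 30.7% of all genes were. At D28 against 36.5 dpp 2 were higher, 1 was lower and 3 did not pass, with a median of -0.07 beside 0.64. The difference of this list from Dnmt1 was not tested.

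Replication and cell-cycle genes, the setting in which maintenance acts, were followed as a list of 14. Of these, 13 fell and 0 rose at D28 against 14.5 dpp, with a median log2 fold change of -1.40 beside -0.08 over all genes. The kinase gene Cdk1 fell by 2.05 (SE 0.40) and Top2a, which encodes a topoisomerase of dividing cells, fell by 1.77 (SE 0.18). From D6 to D28 13 of the 14 fell, against 12.7% of all genes, with a median of -0.65 beside -0.04. Between 14.5 and 53.5 dpp 13 fell as well, with a median of -2.45 beside -0.84 over all genes. The largest falls were those of the helicase subunit gene Mcm2 (-4.65, SE 0.24) and the cyclin gene Ccna2 (-4.20, SE 0.20). Against 36.5 dpp, D28 explants were higher at 8 of the 14 and lower at 5, a share close to the 56.4% of all genes, with a median of 1.03 beside 0.64.

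The summed FPKM of the 14 genes was 768 ± 20.5 (SD, n = 3) at 8.5 dpp, 576 ± 78.9 (SD, n = 2) at 14.5 dpp and 240 ± 11.2 (SD, n = 3) at 36.5 dpp. In explants it was 368 ± 23.6 at D6 and 228 ± 15.4 at D28 (SD, n = 3), and Mcm7 was the most abundant gene of the list in every group. Mcm7 alone made up 108 FPKM of the sum at 36.5 dpp and 57.0 FPKM at D28, so near sums there do not mean equal levels of the other genes. The mean log2 level of the list was 3.14 ± 0.17 at 36.5 dpp and 3.77 ± 0.13 at D28 (SD, n = 3).

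Of the genes for proteins that bind methylated DNA, 2 are given here, with no counts over their list. The repressor gene Zbtb4 rose at D28 against 14.5 dpp, with a log2 fold change of 0.34 (SE 0.11), from 14.4 ± 0.0116 (SD, n = 2) to 18.6 ± 2.30 (SD, n = 3) FPKM. Mbd2 fell by 2.37 (SE 0.14) between 14.5 and 53.5 dpp, from 15.4 ± 2.05 (SD, n = 2) to 2.17 ± 0.405 (SD, n = 3) FPKM.

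Of 17 genes for removal of oxidised bases and TET partners, 16 were tested at D28 against 14.5 dpp, where 2 rose, 3 fell and 11 did not pass, shares below the 18.0% and 23.1% of all genes. Gadd45b rose by 2.04 (SE 0.18), from 6.24 ± 0.320 (SD, n = 2) to 28.9 ± 4.27 (SD, n = 3) FPKM, and Gadd45a rose by 1.32 (SE 0.12). Both are stress-inducible genes that have been tied to demethylation and to DNA repair. The falls included Idh2 (-0.82, SE 0.19), whose enzyme makes the TET cosubstrate, and the glycosylase gene Neil2 (-0.43, SE 0.14). Between 14.5 and 53.5 dpp 14 of 16 fell and 0 rose, with a median of -1.96 beside -0.84 over all genes. Tdg, which encodes the glycosylase that excises oxidised methylcytosine, fell by 3.60 (SE 0.13), from 50.2 ± 7.04 (SD, n = 2) to 3.19 ± 0.174 (SD, n = 3) FPKM. Ogt, whose product glycosylates proteins and binds TET enzymes, fell by 3.36 (SE 0.19). At D28 against 36.5 dpp 14 of 15 were higher, with a median of 1.70 beside 0.64.

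The methyl donor cycle, which supplies S-adenosylmethionine, had 1 rise and 0 falls among 11 genes tested at D28 against 14.5 dpp, where 18.0% of all genes rose. Ahcy, which clears the by-product of methylation, rose by 0.39 (SE 0.10). Between 14.5 and 53.5 dpp 11 of 12 fell and 1 rose, with a median of -1.44 beside -0.84. The serine hydroxymethyltransferase gene Shmt2 fell by 2.87 (SE 0.17) and Mat2b fell by 2.86 (SE 0.18), while Bhmt rose by 0.27 (SE 0.11) at a level of 0.865 FPKM or less on average. At D28 against 36.5 dpp 8 of 11 were higher and 0 lower, not far from the 56.4% of all genes, with a median of 1.08 beside 0.64.

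Imprint and de novo partners had 0 rises and 6 falls among 12 genes at D28 against 14.5 dpp, with a median of -0.36 beside -0.08 over all genes. They included Ctcfl1, the germ-line relative of Ctcf (-0.75, SE 0.20), and the histone methyltransferase gene Ehmt2 (-0.51, SE 0.17). Between 14.5 and 53.5 dpp 10 fell and 2 rose, with a median of -1.69 beside -0.84. Nsd1, whose product writes a histone mark bound by Dnmt3 enzymes, fell by 3.11 (SE 0.15) and the insulator gene Ctcf by 2.77 (SE 0.16). The rises were those of Zfp57 (0.97, SE 0.22), which protects imprints, and its corepressor gene Trim28 (0.91, SE 0.13). At D28 against 36.5 dpp 9 of 12 were higher and 2 lower, with a median of 0.85 beside 0.64.

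Cell type markers were read beside these levels. The 8 spermatocyte genes summed to 1076 ± 75.1 FPKM at 24.5 dpp and 474 ± 15.4 at 36.5 dpp, but to 34.0 ± 3.14 at D16 and 34.3 ± 9.65 at D28 (SD, n = 3). At 14.5 dpp the 2 testes held 17.8 and 91.2 FPKM, and Sycp3 was the most abundant gene there and at every later age. The 6 spermatid genes summed to 17.1 ± 0.234 FPKM at 24.5 dpp, 677 ± 448 at 30.5 dpp, 4833 ± 952 at 36.5 dpp and 20083 ± 2797 at 53.5 dpp (SD, n = 3). The last sum was led by Tnp1. In explants the spermatid sum was at most 12.1 FPKM in any library, and the protamine gene Prm1 is listed at 0 in all of them. The part of these cells in the in vivo falls of Dnmt1, Dnmt3a and Dnmt3b was not tested.

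Of 8 Sertoli genes, led by Cldn11 from 14.5 dpp on, the sum was 842 ± 19.4 FPKM (SD, n = 2) at 14.5 dpp, 95.7 ± 13.1 (SD, n = 3) at 36.5 dpp and 845 ± 51.1 (SD, n = 3) at D28. Cldn11 alone made up 430 FPKM at 14.5 dpp and 488 FPKM at D28, and Gata1 is at 0 in all libraries. At D28 against 14.5 dpp 3 of the 7 tested genes fell, among them Amh (-0.82, SE 0.22) and Dmrt1 (-0.58, SE 0.13), and Fshr rose by 0.88 (SE 0.18). Of the 7 tested, 6 were higher and 0 lower at D28 than at 36.5 dpp, against 56.4% of all genes higher, with a median of 3.03 beside 0.64. In that comparison the median was 3.07 for endothelial, 1.92 for macrophage, 1.41 for spermatogonial and 0.88 for peritubular genes. It was -1.94 for Leydig, -2.11 for red blood cell, -2.88 for spermatocyte and -8.40 for spermatid genes. The 9 spermatogonial genes summed to 358 ± 92.2 FPKM (SD, n = 2) at 14.5 dpp. Their sum was 563 ± 67.6 at 24.5 dpp, 246 ± 13.2 at 36.5 dpp and 301 ± 37.9 at D28 (SD, n = 3). At D28 against 14.5 dpp 4 of the 9 fell and 1 rose, with Dazl at -1.30 (SE 0.39), Ddx4 at -1.08 (SE 0.20) and Id4 at 1.61 (SE 0.21). The most abundant spermatogonial gene was Dazl at 14.5, 24.5 and 36.5 dpp and Uchl1 in explants, and none was at 0. Dazl alone made up 151 FPKM at 14.5 dpp and 314 FPKM at 24.5 dpp, and Uchl1 made up 187 FPKM at D28. Near sums of this list thus come from different genes and do not measure the number of spermatogonia.

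The 6 Leydig genes, led by Hsd3b1 in explants, summed to 225 ± 114 FPKM (SD, n = 2) at 14.5 dpp and 29 ± 6.84 (SD, n = 3) at D28, and 6 of 6 fell. The 4 peritubular genes, led by Acta2, went from 290 ± 102 to 81.3 ± 10.9 FPKM with 3 falls. The 4 endothelial genes, led by Cdh5, went from 27.8 ± 4.42 to 58.2 ± 12.2 FPKM with 3 rises, where 18.0% of all genes rose. Of the 5 macrophage genes 4 were tested and 2 rose, with sums of 9.68 ± 0.914 and 31.6 ± 13.0 FPKM, and Cd163 is at 0 in explants. Of the red blood cell genes 2 were matched, and Hbb, at 316 ± 103 FPKM at 14.5 dpp, is listed at 0 in every D28 library, while Alas2 rose from 3.06 ± 0.304 to 6.60 ± 2.05 FPKM. The part of these cells in the lower levels of Uhrf1, Dnmt1, Dnmt3a and Dnmt3b at D28 was not tested. Among the 24.5 dpp testes, replicate 3 was highest for each of these genes. Its Sertoli sum was 536 FPKM, against 329 and 341 FPKM in replicates 1 and 2. Its Leydig sum was 66.3 FPKM, against 595 and 357 FPKM.

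**Figure D4:**
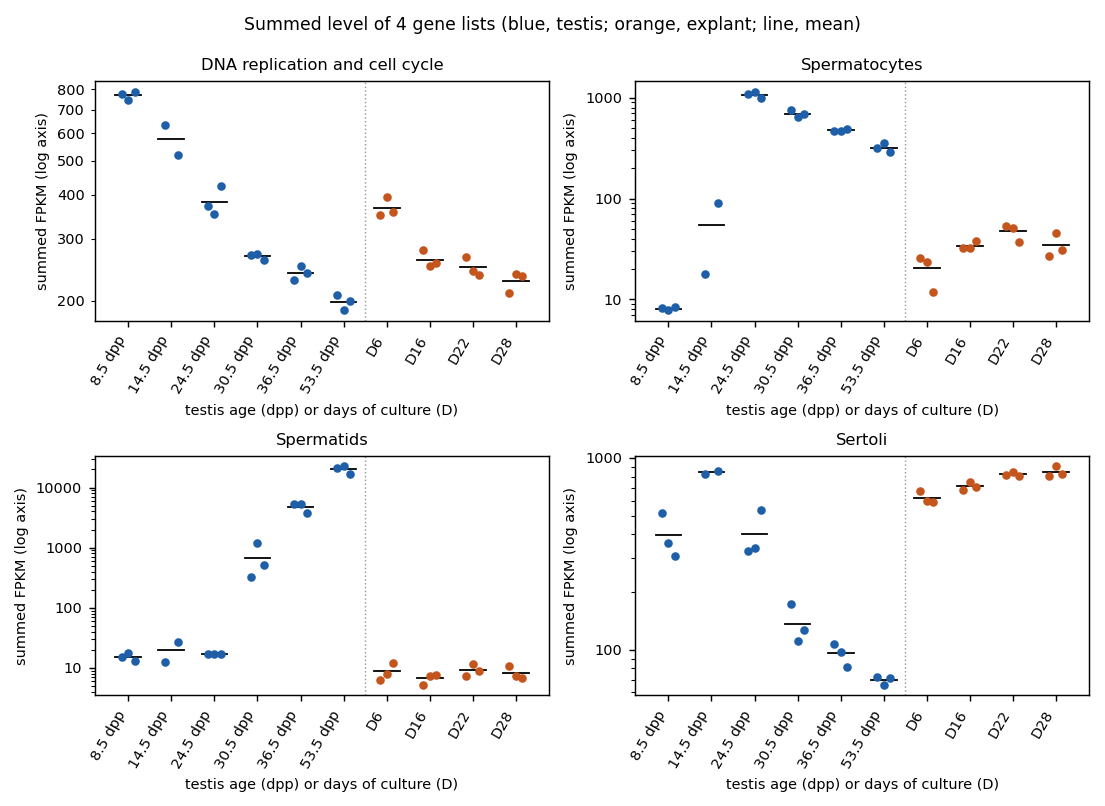
Summed FPKM (vertical log axes) of 4 gene lists in each library, for testes by age in dpp and explants by days of culture. Points are libraries and lines are means; spermatocyte and spermatid sums stay low in explants, the Sertoli sum, of which Cldn11 is the largest share from 14.5 dpp on, is higher at D28 (845) than at 36.5 dpp (95.7), and the replication sum falls with time in both.

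Finally, the genes most like each member were sought among the 12762 genes whose median reached 0.5 FPKM in any group, by Pearson's r of group means of log2(FPKM + 1) over the 10 groups. These groups share libraries and scaling, so r is a description. The 3 genes nearest to Dnmt1 were Pacsin3 (r = 0.997), Tcof1 (0.996) and Cbx2 (0.996), and those nearest to Dnmt3a were Cybrd1 (0.998), Mrm2 (0.997) and Rad51d (0.997). Dnmt3b was nearest to Nop14 (0.996), Rassf5 (0.995) and Mtss1 (0.994). Uhrf1 was nearest to Gemin6 (0.975), to the mitotic spindle gene Dlgap5 (0.972) and to its partner gene Cdca7 (0.971). The genes nearest to Dnmt3l were Neurl1 (0.982), Sag (0.980) and Upk2 (0.980), which mainly reflects 1 group, since Dnmt3l is high only at 53.5 dpp and at 0 in 5 of the 10 groups. Among the members, r was 0.985 between Dnmt1 and Dnmt3a and 0.903 between Dnmt1 and Dnmt3b, but 0.609 between Dnmt1 and its partner Uhrf1.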

How the data were processed

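Per the submitters' notes, reads were called with bcl2fastq 2.17.1.14 and aligned to rn6 with STAR 2.5.2a. Single reads of 50 bases came from poly(A) libraries that keep strand. The authors deposited FPKM per gene, normalized to transcript length and mapped reads, and no counts were used here. The genes, lists and comparisons were chosen with earlier results of these data known. Of 17322 gene identifiers, 17172 were found in a RefSeq table (GRCr8). Log2(FPKM + 1) was fitted with limma 3.58.1 in R 4.3.3 (lmFit, eBayes), keeping genes whose median reached 0.5 FPKM in 1 or more of the compared groups, with Benjamini-Hochberg adjustment over all genes tested. A gene was called where the adjusted p was at most 0.05 and the ratio of group medians at least 2, with an F test deciding for D16, D22 and D28 against 14.5 dpp. The interaction used no fold. All members were named with every library, and the 3 nearest genes per member. The 2 largest rises and falls at D28 and at 53.5 dpp against 14.5 dpp were named for the partner, methyl donor and replication lists. For Sertoli and spermatogonial markers they were named at D28 only. Other marker genes were named by their role in a sum. Of the readers of methylated DNA only Zbtb4 and Mbd2 are given. Fits were tested on simulated data. Of the 30 libraries, 29 were used. Python 3.11.15 (pandas 2.3.3, numpy 2.4.6, scipy 1.17.1, matplotlib 3.10.9) gave ratios, sums and figures. Alternatives were a pseudocount of 0.1, no filter, median-ratio scaling, quantile normalization, all 10 groups in 1 fit, a replicate block, the moderated test of each contrast and leaving out each replicate.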

Additional observations from a re-analysis of the deposited data

Results flagged for a closer look

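The change from D6 to D28 differed from the change from 14.5 to 36.5 dpp by the interaction test for 3 genes. The difference on the log2 scale was 2.721 for Dnmt1, 2.408 for Dnmt3a and 2.368 for Dnmt3b, above the 0.63 of the median gene tested. It was positive and past the threshold under every alternative tried. The summed Sertoli, spermatocyte and spermatid markers differ between these groups as well. By the same test 6 of 7 Sertoli genes were higher, with a median of 2.89, against 50.9% of all genes. So were 4 of 4 endothelial, 6 of 9 spermatogonial, 3 of 4 macrophage, 3 of 6 Leydig, 2 of 4 peritubular and 2 of 2 red blood cell genes. Lower were 7 of 8 spermatocyte and 6 of 6 spermatid genes, against 3188 of 12482 genes. Also lower were 2 spermatogonial genes, 1 macrophage gene and 1 Leydig gene. The part of these cells was not tested.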

How the results depend on the processing

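Of the results of the 4 genes (without Dnmt3l), 795 kept direction and side of the threshold when 1 library was left out, 32 no longer passed it, 14 newly passed it and 3 turned; for the other alternatives these were 388, 15, 13 and 4. Where a 14.5 dpp library was left out, the lone one was assumed to vary like the other groups.
The turned values, none past the threshold, were those of Dnmt1 at D16 against 24.5 dpp (-0.1121 with median-ratio scaling, -0.1354 to 0.2471 with 1 library left out), Uhrf1 at 30.5 against 24.5 dpp (0.06822 with median-ratio scaling) and Uhrf1 in the interaction (-0.4025 with median-ratio scaling, -0.04338 with quantile normalization).
Genes called at D6 against 14.5 dpp numbered 898, 376 with the replicate block and 406 to 944 with 1 library left out. At 14.5 against 8.5 dpp they numbered 1841, and 1200 to 2418 with 1 library left out. At 30.5 against 24.5 dpp they numbered 4715, and 3099 with median-ratio scaling. The cause was not tested.
Median-ratio scaling moved the percentage of called genes that were higher from 64.8 to 46.0 (D22 against 30.5 dpp), 66.4 to 44.9 (D28 against 36.5 dpp), 66.6 to 45.3 (interaction), 57.0 to 42.5 (14.5 against 8.5 dpp), 34.9 to 81.9 (30.5 against 24.5 dpp), 81.2 to 95.5 (36.5 against 30.5 dpp), 28.8 to 55.8 (53.5 against 14.5 dpp), 40 to 85.1 (53.5 against 36.5 dpp) and 61.4 to 49.0 (D6 against 8.5 dpp). Quantile normalization gave 46.9 (30.5 against 24.5 dpp), 38.9 (53.5 against 14.5 dpp), 82.4 (53.5 against 36.5 dpp) and 50.8 (D6 against 8.5 dpp). Smaller moves also turned the majority at 14.5 against 8.5 dpp (47.8 with quantile normalization) and at D28 against 8.5 dpp (56.5, 49.2 with median-ratio scaling). Replicates share only a number: residuals of the same number correlated over 0.1 in 2 of 40 pairs in the in vivo fit, 6 of 30 in the fit with 8.5 dpp, 5 of 18 in the culture fit, 3 of 15 each in the interaction and in the fit of D16, D22 and D28 with 14.5 dpp, 1 of 3 for D28 with 36.5 dpp and 0 in the rest (highest r 0.218). With the block 3 of the 4 genes missed the p threshold, all at D6 against 14.5 dpp. Read depth is unknown, so what it limits at low FPKM was not tested.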
